A study of Homo sapiens with 12 samples.

Results

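Clock gene transcripts were examined in MDA-MB-231 cells, an established human triple-negative breast cancer (TNBC) line that expresses the glucocorticoid receptor (GR, gene NR3C1). The 10 genes PER2, PER3, CRY1, CRY2, NR1D1, NR1D2, ARNTL (also called BMAL1), CLOCK, DBP and BHLHE40 were chosen by symbol, and all 10 were found among the 19907 symbols listed in every library. RNA-seq had been done on a clone that kept wt-GR after the editing procedure and on S134A-GR clone #1, in which CRISPR knock-in replaced Ser134 of GR with alanine on both alleles, together with a change in the PAM. Cells of both lines were starved for 18 h in IMEM with 1% DCC (charcoal-stripped serum) and then received either vehicle or TGFβ1 (10 ng/mL) over 6 h, with no glucocorticoid added. The 4 groups were therefore wt-GR vehicle, wt-GR TGFβ1, S134A-GR vehicle and S134A-GR TGFβ1, with 3 replicates each and 12 libraries in all. Each line was 1 clone, so the mutation and any other difference between the clones cannot be told apart. All cells were collected after 1 length of treatment, so the values are single levels and not rhythms.

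The circadian clock is a transcriptional feedback loop that runs in most cells. CLOCK pairs with ARNTL, and the pair binds E-box sequences and activates the PER and CRY genes, whose proteins return to the nucleus and repress the pair. NR1D1 and NR1D2 (REV-ERBα and REV-ERBβ) repress ARNTL through a short response element that ROR receptors also use, DBP activates genes through D-box elements, and BHLHE40 (DEC1) binds E-boxes and represses them. Several clock genes are known to respond directly to glucocorticoids, and serum or hormone changes reset the clocks of cultured cells.

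Recovered totals ranged from 56.4 (wt-GR vehicle replicate 1) to 129.8 (wt-GR TGFβ1 replicate 2) per library, in units of 1e6 reads. All 10 clock genes were far above the detection floor of 3 reads, which was at most 4.89 normalized counts. A normalized count is the number of reads of a gene after division by a size factor of the library. NR3C1 transcript was present in every library, between 8336 and 12729 normalized counts, and was lower in S134A-GR cells (log2 fold change −0.41 under vehicle, FDR = 0.00012 by limma). The single-codon change itself cannot be read from counts. The TGFβ1 targets SMAD7, SKIL and PMEPA1 rose in both lines, by 1.19 to 2.90 on the log2 scale in wt-GR cells and by 1.32 to 2.18 in S134A-GR cells. PMEPA1 rose less in S134A-GR cells, by 0.72 (FDR = 0.000909 by limma for the difference in response). The responses of SMAD7 and SKIL were not called different (FDR = 0.717 and 0.691 by limma). Markers of the line were present in all libraries (VIM 419832 to 533198, CD44 41033 to 62473, EGFR 13848 to 21775 normalized counts). Of the luminal markers, ESR1 (0 to 7.32) and CDH1 (1.05 to 12.5) were near the floor, whereas GATA3 (688 to 1183) and EPCAM (318 to 1093) were not low. EPCAM was lower in S134A-GR cells (log2 fold change −1.44 under vehicle and −1.58 under TGFβ1) and GATA3 was higher (0.43 and 0.30), all called by limma, and their part in the clock gene differences between the lines was not tested.

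Levels of the clock genes differed widely. Per kilobase of the reference transcript, BHLHE40 had the highest level in wt-GR cells under vehicle, with a mean of 7012 normalized counts per kb. It was followed by NR1D2 (1032), CRY1 (1019), CLOCK (482), NR1D1 (463), ARNTL (249), CRY2 (239.9), PER3 (179), DBP (107) and PER2 (106). Replicates overlapped between the neighbours NR1D2 and CRY1, CLOCK and NR1D1, ARNTL and CRY2, and DBP and PER2, so the order within these pairs was not resolved. When all annotated exons were used as the length, ARNTL stood at 99.9 and DBP at 35.7 per kb. BHLHE40 was first in all 4 groups by either length. CRY1 was above NR1D2 per kilobase of reference transcript in both TGFβ1 groups. By all annotated exons their replicates overlapped in both TGFβ1 groups, so this order depended on the length used.

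**Figure D1:**
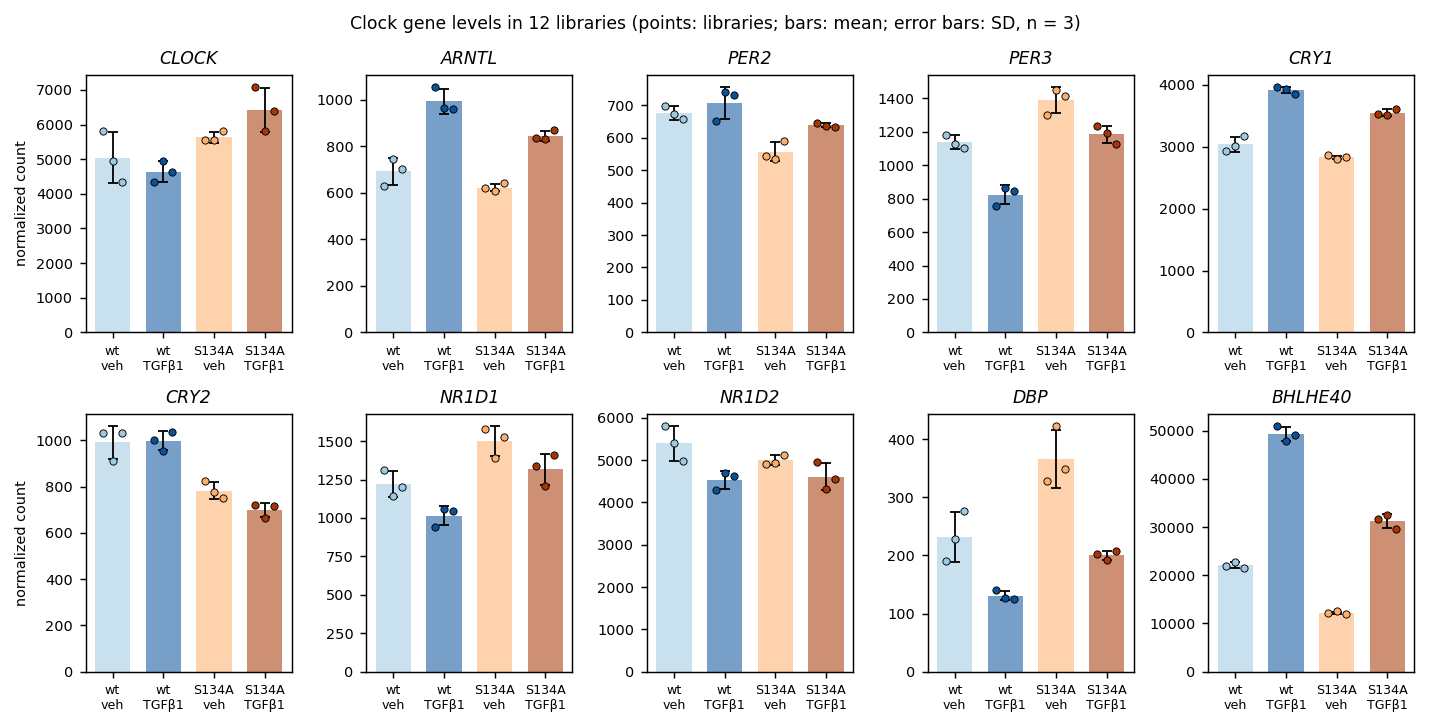
Normalized counts of the 10 clock genes (vertical axis, separate scale for each gene, starting at 0) in the 4 groups. Points are libraries, bars are means and error bars are the SD of 3 replicates. BHLHE40 stood at 22102 in wt-GR vehicle cells and at 49361 after TGFβ1, and DBP was the lowest of the 10 genes in these units.

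The first question was what TGFβ1 did to clock gene transcripts in each line. In wt-GR cells 7 of the 10 genes passed an FDR of 0.05 (limma, adjusted over the 18579 genes tested). BHLHE40, ARNTL and CRY1 rose, and DBP, PER3, NR1D1 and NR1D2 fell. Over all genes tested, 21% were called in this comparison, 11.2% higher and 9.82% lower. In S134A-GR cells 5 of 10 were called, against 18.7% of all genes (10% higher and 8.69% lower), with BHLHE40, ARNTL and CRY1 higher and DBP and PER3 lower. These 5 genes were called in the same direction in both lines. The median log2 fold change of the 10 genes was −0.05 in wt-GR and 0.03 in S134A-GR cells, beside 0.00 and −0.01 over all genes, and the median size of the change was 0.31 and 0.21, beside 0.16 and 0.15. The groups did not overlap for 7 and 8 of the 10 genes, against 33.9% and 35.6% of all genes.

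BHLHE40 changed most. In wt-GR cells BHLHE40 was at 21995, 22828 and 21481 normalized counts under vehicle and at 50962, 47949 and 49173 under TGFβ1. In S134A-GR cells it was at 12152, 12499 and 12025 under vehicle and at 31672, 32528 and 29620.0 under TGFβ1. Every treated library lay above every vehicle library of its line. The log2 fold change was 1.16 ± 0.04 (SE) in wt-GR cells, or 2.23-fold (FDR = 8.32e-11 by limma), and 1.35 ± 0.04 in S134A-GR cells, or 2.56-fold (FDR = 2.66e-11). BHLHE40 was the only one of the 10 genes past an absolute log2 fold change of 1, which 2.29% and 1.66% of all genes passed together with the FDR. An antisense gene, BHLHE40-AS1, covers 12.8% of its annotated exon bases, but its own mean over the 12 libraries was 72.0 normalized counts, beside 28740.5 for BHLHE40. BHLHE40-AS1 had log2 fold changes under TGFβ1 of 0.60 in wt-GR and 0.92 in S134A-GR cells.

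DBP, the D-box activator and a direct target of CLOCK and ARNTL, moved the other way. Under vehicle it was at 191, 228 and 276 normalized counts in wt-GR cells, and under TGFβ1 it was at 140.0, 127 and 125. In S134A-GR cells the vehicle values were 328, 423 and 348 and the TGFβ1 values 203, 192 and 207. Neither line had a treated library that reached its vehicle libraries. DBP fell by 0.81 on the log2 scale in wt-GR cells (SE 0.14, FDR = 0.000911 by limma) and by 0.86 in S134A-GR cells (FDR = 0.000632). SPHK2, on the opposite strand, covers 30.5% of the DBP reference transcript. The mean of SPHK2 over the 12 libraries was 2658 normalized counts, beside 232 for DBP. The strand setting of the authors' counting is not given in the sources used here, so reads of the 2 genes in this stretch may not have been separated. SPHK2 had a log2 fold change under TGFβ1 of −0.02 (FDR = 0.739 by limma) in wt-GR and −0.14 (FDR = 0.0248) in S134A-GR cells.

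ARNTL, the partner of CLOCK, rose in both lines. Its values in wt-GR cells were 631, 746 and 701 normalized counts under vehicle and 1056, 965 and 959 under TGFβ1. The S134A-GR values were 619, 608 and 641 under vehicle and 837, 831 and 869.9 under TGFβ1, and the groups did not overlap in either line. The log2 fold change was 0.52 ± 0.07 (SE, FDR = 0.000115 by limma) in wt-GR and 0.44 ± 0.07 (FDR = 0.000556) in S134A-GR cells. CLOCK itself was not called. In wt-GR cells it had a mean of 5042 ± 739 normalized counts (SD, n = 3) without and 4641 ± 302 with TGFβ1. The S134A-GR means were 5633 ± 156 and 6431 ± 636. The replicates overlapped in wt-GR cells, where vehicle alone spanned 4349 to 5820, and the log2 fold changes were −0.11 (FDR = 0.449 by limma) and 0.19 (FDR = 0.183).

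The repressors split by gene. CRY1, which blocks CLOCK and ARNTL activity, was at 2939, 3016 and 3177 normalized counts in wt-GR vehicle cells and at 3959, 3933 and 3857 with TGFβ1. In S134A-GR cells CRY1 went from 2859.7, 2807 and 2828 to 3528, 3506 and 3613. Replicates differed little within a group, and CRY1 rose by a log2 fold change of 0.36 (SE 0.04, FDR = 9.53e-06 by limma) and 0.33 (FDR = 3.38e-05). CRY2, its paralog, did not pass the test in either line, with log2 fold changes of 0.01 (95% interval −0.14 to 0.16) in wt-GR and −0.16 (−0.31 to −0.01) in S134A-GR cells.

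PER3, a PER family member, fell. It was at 1183, 1125 and 1101 normalized counts in wt-GR vehicle cells and at 758, 863 and 847 after TGFβ1, and the groups did not overlap. The S134A-GR values were 1299.8, 1453 and 1416 under vehicle and 1234, 1192 and 1128 under TGFβ1, again without overlap. The log2 fold change was −0.47 ± 0.07 (SE, FDR = 0.000169 by limma) in wt-GR and −0.23 ± 0.07 (FDR = 0.0287) in S134A-GR cells. The S134A-GR call was lost without vehicle replicate 2 or 3 (FDR = 0.113 and 0.0957) or without TGFβ1 replicate 2 or 3 (FDR = 0.062 and 0.102), all by limma. PER2, which carries out the same repression, was not called, with log2 fold changes of 0.06 (95% interval −0.09 to 0.22) in wt-GR and 0.20 (0.04 to 0.35) in S134A-GR cells.

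Both REV-ERB genes fell in wt-GR cells. NR1D1 was at 1312, 1146 and 1198 normalized counts under vehicle and at 942, 1059.6 and 1043 under TGFβ1, while NR1D2 had 5802, 5403 and 4986 without TGFβ1 and 4298, 4696 and 4621 with it. No treated library reached a vehicle library for either gene. The log2 fold change of NR1D1 was −0.26 ± 0.08 (SE, FDR = 0.0251 by limma) and that of NR1D2 was −0.25 ± 0.06 (FDR = 0.0087). In S134A-GR cells the values were −0.19 (FDR = 0.108) and −0.12 (FDR = 0.207) by limma, and neither was called. The NR1D1 call in wt-GR cells was lost without vehicle replicate 1 (FDR = 0.0996) or TGFβ1 replicate 1 (FDR = 0.113) by limma. THRA overlaps 18.0% of the NR1D1 transcript on the opposite strand, with a mean over the 12 libraries of 2399 normalized counts, beside 1262 for NR1D1. THRA also fell, by 0.34 in wt-GR and 0.39 in S134A-GR cells on the log2 scale. Its part in the NR1D1 values was not tested.

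**Figure D2:**
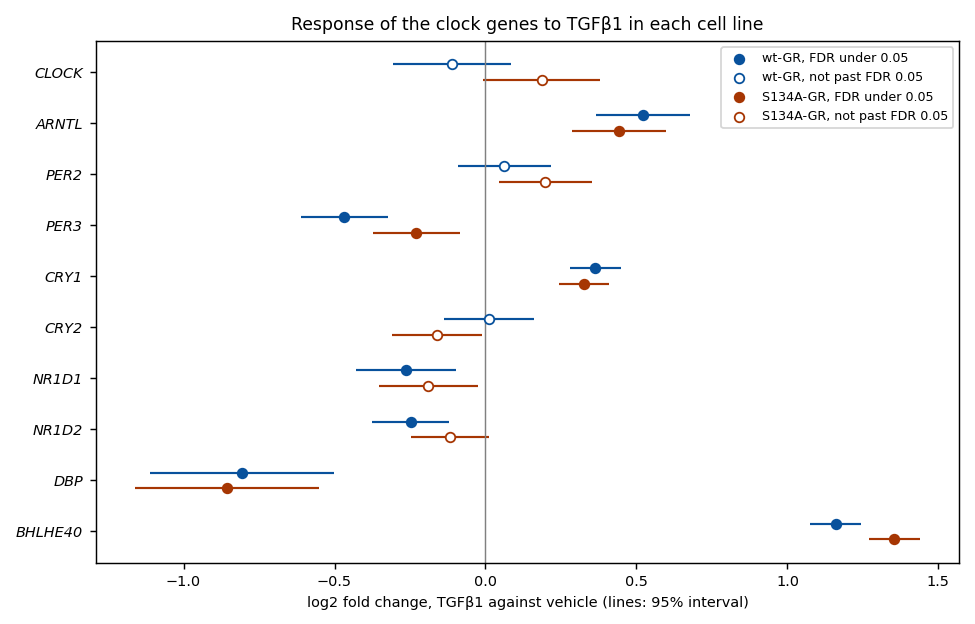
Log2 fold change of TGFβ1 against vehicle (horizontal axis) for each clock gene in wt-GR cells (blue) and S134A-GR cells (brown). Points are estimates from limma, lines are 95% intervals, and filled points passed an FDR of 0.05. BHLHE40 lies farthest to the right (1.16 and 1.35) and DBP farthest to the left (−0.81 and −0.86).

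Sequences around the start sites show which short clock elements lie near the starts of the genes that responded. RefSeq promoter windows (GRCh38.p14, 250 bases before to 50 after the start, 15 windows for the 10 genes) were searched on both strands for the E-box CACGTG, the E'-box CACGTT, the D-box TTANGTAA, the REV-ERB/ROR element TAGGTCA, the full palindromic GR element, the SMAD element GTCTAGAC and the cAMP element TGACGTCA. The sequences below run 5′ to 3′ on the strand of the gene, with the match in capitals. No match of these genes overlapped another. Those of the first 4 genes end at the base before the start, and that of ARNTL lies after the start, with its match 30 bases in. BHLHE40 and PER3 are shown as responders in opposite directions, NR1D1 and CRY1 as a pair that holds the same element and moved apart, and ARNTL for the element that NR1D1 and NR1D2 bind.
BHLHE40, chr3:4979187-4979436, plus strand, E-box: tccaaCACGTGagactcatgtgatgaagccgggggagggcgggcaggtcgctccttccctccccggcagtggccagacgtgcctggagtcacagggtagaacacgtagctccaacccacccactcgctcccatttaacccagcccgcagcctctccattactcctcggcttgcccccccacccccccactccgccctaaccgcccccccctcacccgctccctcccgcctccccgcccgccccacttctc
PER3, chr1:7784041-7784290, plus strand, D-box: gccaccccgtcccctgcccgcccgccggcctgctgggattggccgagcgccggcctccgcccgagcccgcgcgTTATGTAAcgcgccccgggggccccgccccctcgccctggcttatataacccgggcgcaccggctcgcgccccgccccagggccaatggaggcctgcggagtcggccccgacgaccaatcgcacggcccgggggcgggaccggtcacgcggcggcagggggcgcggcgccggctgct
NR1D1, chr17:40100590-40100839, minus strand, E'-box on the other strand: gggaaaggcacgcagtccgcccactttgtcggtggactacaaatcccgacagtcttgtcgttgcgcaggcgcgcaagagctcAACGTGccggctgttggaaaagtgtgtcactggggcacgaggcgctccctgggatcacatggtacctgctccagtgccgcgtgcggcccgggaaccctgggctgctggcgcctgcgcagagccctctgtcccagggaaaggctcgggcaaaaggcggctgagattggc
CRY1, chr12:107093550-107093799, minus strand, E'-box on the other strand: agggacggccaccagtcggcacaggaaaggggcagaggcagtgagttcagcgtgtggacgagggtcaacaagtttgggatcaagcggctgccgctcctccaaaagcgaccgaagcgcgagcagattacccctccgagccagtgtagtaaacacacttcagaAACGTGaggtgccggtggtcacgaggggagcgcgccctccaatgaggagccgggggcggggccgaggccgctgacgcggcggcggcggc
ARNTL, chr11:13277809-13277837, plus strand, REV-ERB/ROR element: aaggcagaaagTAGGTCAgggacggaggt

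An E-box was present for 2 of the 10 genes, BHLHE40 and NR1D2, the latter with 2 copies. The E'-box was found for 5 genes (CLOCK, PER2, CRY1, CRY2 and NR1D1), the D-box for 3 (PER2, PER3 and NR1D2) and the REV-ERB/ROR element for 2 (ARNTL and CRY2). Counted by window, these elements lay in 2, 5, 3 and 2 of the 15 windows. Among all 35116 windows the shares were 7.26%, 5.34%, 2.18% and 1.85%. None of the 15 windows held the GR, SMAD or cAMP element, which 0.39%, 0.202% and 1.85% of all windows held, and none of these motifs lay in the DBP window. Genes with an E-box or E'-box were found among those that rose (BHLHE40 and CRY1), those that fell (NR1D1 and NR1D2) and those that were not called (CLOCK, PER2 and CRY2). The matches describe letters in these windows only.

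The next question was whether the response to TGFβ1 differed between the lines. None of the 10 genes passed an FDR of 0.05 for the difference of the log2 fold changes, by limma, edgeR or DESeq2, and 0.414% of all genes did by limma (0.167% higher and 0.248% lower, and 0.0592% with an absolute difference of at least 1). At an unadjusted p under 0.05 there were 3 of 10 (CLOCK, PER3 and BHLHE40), against 9.3% of all genes. The increase of BHLHE40 was larger in S134A-GR cells by 0.19 on the log2 scale (95% interval 0.07 to 0.32, FDR = 0.257 by limma). The decrease of PER3 was smaller there, by 0.24 (95% interval 0.03 to 0.44, FDR = 0.462 by limma). CLOCK differed by 0.30 (95% interval 0.02 to 0.57, FDR = 0.503 by limma), with opposite signs in the lines that were not called in either. For the other 7 genes the estimates ran from −0.17 (CRY2) to 0.14 (PER2). NR1D1 and NR1D2, called in wt-GR cells alone, were among these, and their responses differed between the lines by 0.07 (95% interval −0.16 to 0.31) and 0.13 (−0.05 to 0.31).

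The lines were then compared within each treatment. Under vehicle 7 of 10 clock genes were called between S134A-GR and wt-GR cells, with DBP, NR1D1 and PER3 higher and BHLHE40, CRY2, PER2 and CRY1 lower in S134A-GR cells. This has to be read against 51.5% of all genes called in the same comparison (25% higher and 26.5% lower). Under TGFβ1 8 of 10 were called, against 48.8% of all genes (23.1% higher and 25.7% lower), with CLOCK, DBP, NR1D1 and PER3 higher and BHLHE40, CRY2, ARNTL and CRY1 lower. DBP, NR1D1, PER3, BHLHE40, CRY2 and CRY1 were called in the same direction under both treatments. The median size of the difference was 0.29 under vehicle and 0.42 under TGFβ1 for the 10 genes, beside 0.32 and 0.30 over all genes. None of the 10 passed an absolute log2 fold change of 1, whereas 9.51% and 8.46% of all genes did. The groups did not overlap for 7 of the 10 genes under vehicle and 9 under TGFβ1, against 57.3% and 55.6% of all genes. Since the libraries are bulk RNA, a lower level in every cell and expression in fewer cells cannot be told apart.

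BHLHE40 was again the gene with the largest difference. The 3 S134A-GR vehicle libraries (12025 to 12499 normalized counts) lay far below the wt-GR ones (21481 to 22828), and the TGFβ1 libraries (29620 to 32528) below those of wt-GR cells (47949 to 50962). The log2 fold change was −0.85 ± 0.04 (SE, FDR = 8.35e-10 by limma) under vehicle and −0.66 ± 0.04 (FDR = 1.09e-08) under TGFβ1. With TGFβ1, S134A-GR cells had more BHLHE40 than untreated wt-GR cells (31273 against 22102 on average). DBP showed the opposite pattern, with means of 366 ± 49.9 (SD, n = 3) in S134A-GR and 232 ± 42.7 in wt-GR cells under vehicle. Its log2 fold change was 0.67 (FDR = 0.00118 by limma) under vehicle and 0.62 (FDR = 0.0023) under TGFβ1. SPHK2, its overlapping neighbour, was also higher in S134A-GR cells, by 0.27 and 0.16, and its part in the DBP difference was not tested.

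NR1D1 and PER3 were higher in S134A-GR cells in both conditions. NR1D1 had means of 1499.8 ± 97.7 against 1219 ± 84.8 (SD, n = 3) under vehicle, and its log2 fold change was 0.30 (FDR = 0.00452 by limma) there and 0.37 (FDR = 0.00101) under TGFβ1. THRA, its overlapping neighbour, was not called between the lines (−0.01 and −0.06). PER3 had means of 1389 ± 79.7 against 1136 ± 42.0 under vehicle and 1184 ± 53.1 against 823 ± 57.0 under TGFβ1. The log2 fold changes of PER3 were 0.29 (FDR = 0.00236 by limma) and 0.53 (FDR = 1.61e-05). No library of one line reached the other for either gene in either condition. UTS2 lies across part of the PER3 transcript on the opposite strand, and 19.5% of the reference transcript is shared with other genes. UTS2 was not among the genes tested. The part of this overlap in the PER3 values, between the lines or under TGFβ1, was not tested.

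CRY2 and PER2 were lower in S134A-GR cells. CRY2 was at 1033, 910.0 and 1029.8 normalized counts in wt-GR vehicle cells and at 822, 777 and 749 in S134A-GR vehicle cells. Under TGFβ1 it was at 1002, 955 and 1037 in wt-GR and at 720.0, 665 and 715 in S134A-GR cells. All S134A-GR libraries were below all wt-GR libraries, with log2 fold changes of −0.34 (SE 0.07, FDR = 0.00094 by limma) and −0.51 (FDR = 3.01e-05). PER2 had a mean of 556 ± 29.5 against 676 ± 21.2 (SD, n = 3) under vehicle, a log2 fold change of −0.28 (FDR = 0.00427 by limma). Under TGFβ1 the PER2 difference was −0.15 and missed the threshold (FDR = 0.108 by limma), but passed it without wt-GR TGFβ1 replicate 1 (FDR = 0.0386).

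CLOCK was higher in S134A-GR cells under TGFβ1, at 7088, 5819 and 6386 normalized counts against 4348, 4952 and 4624, a log2 fold change of 0.47 ± 0.09 (SE, FDR = 0.000614 by limma). Under vehicle the groups overlapped, and the difference of 0.17 was not called (FDR = 0.135 by limma) unless wt-GR vehicle replicate 1, the highest of its group, was left out (0.28, FDR = 0.00873). ARNTL was lower in S134A-GR cells under TGFβ1, by 0.23 on the log2 scale (FDR = 0.0161 by limma). That call was lost without wt-GR TGFβ1 replicate 1 (FDR = 0.0749), while the vehicle difference of −0.15 (FDR = 0.0974) was called without wt-GR vehicle replicate 1 (FDR = 0.0228), both by limma. CRY1 differed by −0.10 under vehicle (FDR = 0.0372 by limma) and −0.14 under TGFβ1 (FDR = 0.00734). The vehicle call for CRY1 was lost on leaving out wt-GR replicate 2 or 3 or any S134A-GR replicate (FDR = 0.0636 to 0.143 by limma). NR1D2 was not called, at −0.11 and 0.02, though without wt-GR vehicle replicate 3 the vehicle difference passed (−0.17, FDR = 0.0301 by limma).

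Neighbouring genes on the chromosome were also compared, because the lines are separate clones. For each clock gene the tested genes nearest to it in GENCODE v44 were taken, 20 in all or 19 for BHLHE40. Between the lines, 26.5% of all genes were called lower and 25% higher under vehicle. Under TGFβ1 these shares were 25.7% and 23.1%. CRY2, at chr11:45847118-45883248 on the plus strand, lay among genes that were lower too, with a median log2 fold change of −0.51 under vehicle and −0.58 under TGFβ1, and 15 of 20 called lower in each. The values of CRY2 itself, −0.34 and −0.51, were smaller in size than these medians. ARNTL, also on chromosome 11, had flanking medians of −0.25 and −0.19, close to its own −0.15 and −0.23. Of its 20 flanking genes, 12 were called lower under vehicle and 11 under TGFβ1. For CLOCK the flanking medians were 0.22 and 0.19. CRY1 was lower although its flanking medians were 0.18 and 0.17, with 9 of 20 genes called higher in each condition. NR1D2, not called itself, had flanking medians of −0.28 and −0.31, with 10 and 12 of 20 called lower, and those of PER2 were 0.00 and −0.04. BHLHE40 at chr3:4979437-4985323 had flanking medians of −0.11 and −0.16 beside its own −0.85 and −0.66. Overlapping genes were kept in these sets, and the vehicle median for BHLHE40 was the value of BHLHE40-AS1 (−0.11, SE 0.21). PER3, DBP and NR1D1 had flanking medians between −0.05 and 0.22 beside own values of 0.29 to 0.67. The other genes lie at chr4:55427903-55546909 (CLOCK, minus strand), chr11:13276652-13387266 (ARNTL, plus), chr2:238244044-238290102 (PER2, minus), chr1:7784291-7845177 (PER3, plus), chr12:106991364-107093549 (CRY1, minus), chr17:40092793-40100589 (NR1D1, minus), chr3:23945286-23980617 (NR1D2, plus) and chr19:48630030-48637379 (DBP, minus), all in hg38. What the neighbourhoods contribute to the difference between the clones was not tested.

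**Figure D3:**
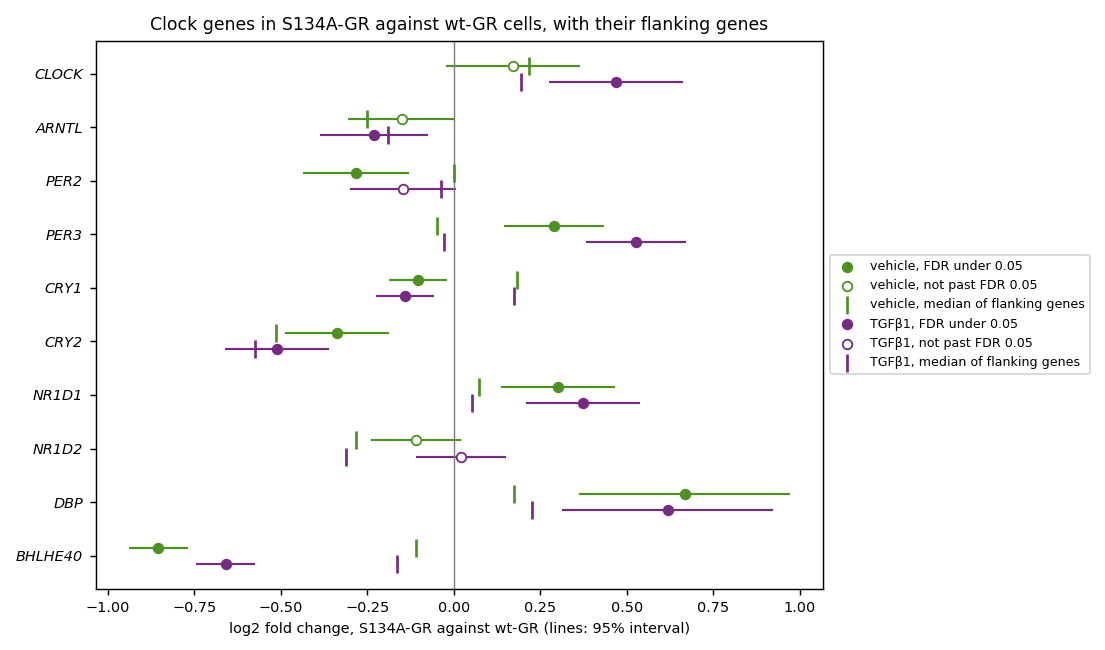
Difference of S134A-GR from wt-GR cells as log2 fold change (horizontal axis) for each clock gene under vehicle (green) and TGFβ1 (purple). Points are limma estimates with 95% intervals, filled where the FDR was under 0.05, and vertical ticks are medians of the flanking genes. The ticks lie near the points for CRY2 and ARNTL and far from them for BHLHE40, PER3 and DBP.

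A wider list of 22 other clock genes was read alongside. Under TGFβ1 7 of the 22 were called in wt-GR cells (2 higher and 5 lower) and 9 in S134A-GR cells (4 higher and 5 lower), against 21% and 18.7% of all genes. The wt-GR count was 4 without wt-GR vehicle replicate 2. Between the lines 16 were called under vehicle, 11 of them higher in S134A-GR cells, and 15 under TGFβ1, again with 11 higher. Over all genes 51.5% and 48.8% were called, 25% and 23.1% higher. The median log2 fold change of the list between the lines was 0.19 under both treatments, beside 0.02 and 0.01 over all genes, and under TGFβ1 it was −0.06 in wt-GR and −0.03 in S134A-GR cells. No gene of the list was called for the difference in response by limma, edgeR or DESeq2, and 3 of 22 had an unadjusted p under 0.05, against 9.3% of all genes. BHLHE41 (DEC2), the paralog of BHLHE40, ran against it. It was at 1103, 1109.7 and 1107 normalized counts in wt-GR vehicle cells and at 659.9, 662 and 578 after TGFβ1, while S134A-GR cells had 1808, 1860.2 and 1685 before and 1149, 1135 and 1077 after it. BHLHE41 fell by 0.81 (FDR = 5.39e-07 by limma) and by 0.67 (FDR = 4.11e-06) on the log2 scale under TGFβ1 and was higher in S134A-GR cells by 0.69 under vehicle. NPAS2, a paralog of CLOCK that also pairs with ARNTL, fell by 0.41 and 0.53 under TGFβ1 and was higher in S134A-GR cells by 0.47 under vehicle. Genes on the opposite strand cover 19.6% of the NPAS2 reference transcript, and their part in these values was not tested. TEF, a relative of DBP, fell by 0.42 and 0.24. PER1, of the same family as PER2 and PER3, was higher in S134A-GR cells by 0.58 under vehicle and 0.60 under TGFβ1. It was not called for TGFβ1 in either line (−0.15 and −0.12). BHLHE41, NPAS2, TEF and PER1 were singled out after their values were seen.

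The genes of the wider list past an absolute log2 fold change of 1 were of low abundance. HLF, a bZIP factor related to DBP, was at 65.2, 49.7 and 47.4 normalized counts in wt-GR and 119, 147 and 148 in S134A-GR cells under vehicle, a log2 fold change of 1.34 (FDR = 4.42e-05 by limma). HLF fell by 1.15 with TGFβ1 in S134A-GR cells (FDR = 0.000743 by limma), to a mean of 61.9 ± 8.36. In wt-GR cells HLF fell by 0.56 and missed the threshold (FDR = 0.053 by limma). HLF passed there by edgeR (FDR = 0.0497) and without a trend in the variance (FDR = 0.0254 by limma), but not by DESeq2. Its difference in response between the lines was not called (FDR = 0.539 by limma). RORB, a ROR receptor, fell by 1.02 in wt-GR cells (FDR = 0.00958 by limma), from a mean of 88.6 ± 25.2 to 43.2 ± 13.5. This call was lost without wt-GR vehicle replicate 2 (FDR = 0.0548) or TGFβ1 replicate 1 (FDR = 0.0503) by limma. Under TGFβ1 RORB was higher in S134A-GR cells by 1.14, and so was USP2, a deubiquitinase, by 1.29 (FDR = 0.000241 by limma). USP2 shares 30.3% of its reference transcript with the antisense gene USP2-AS1. CSNK1E, a kinase that phosphorylates PER proteins, differed by 1.53 under vehicle (FDR = 0.02 by limma), but its wt-GR vehicle libraries were at 14.7, 62.4 and 68.4 normalized counts. Without the first of these the call was lost (0.84, FDR = 0.0851 by limma), and so it was without S134A-GR vehicle replicate 1 (FDR = 0.0512). As 46.7% of its reference transcript is shared with a readthrough gene, its count is uncertain.

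**Figure D4:**
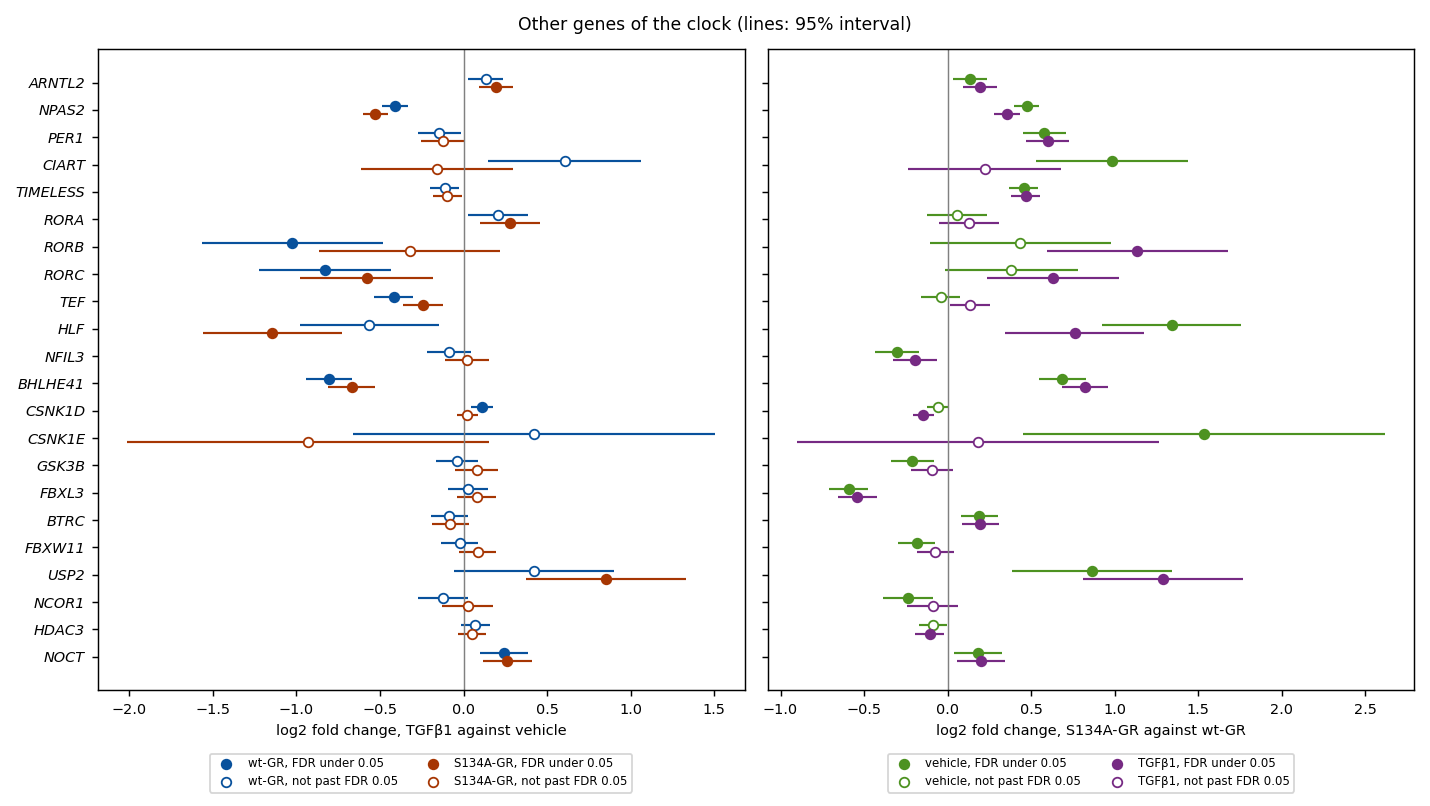
Log2 fold change of 22 other clock genes for TGFβ1 against vehicle (left) and for S134A-GR over wt-GR cells (right). Points are limma estimates with 95% intervals, filled where the FDR was under 0.05. In the left panel BHLHE41 and NPAS2 lie to the left of 0 in both lines, and CSNK1E and RORB have wide intervals.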

How the data were processed

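RNA-seq libraries were prepared from MDA-MB-231 cells, 3 per group, 12 in all. The deposited values are a normalized signal, for which the authors used Trimmomatic, HISAT2 with hg38, featureCounts and DESeq2 1.22.2 size factors. The annotation, strand setting and counting of read pairs are not given in the sources used here. Recovered totals were above the average depth that the methods state, and if both reads of a pair were counted, a read here is not a fragment. All values were whole multiples (tolerance 0.01) of 1 step per library, so size factors (0.614 to 1.40) and whole reads were recovered. Depth limits only the rarest genes, and the floor of 3 reads covers counting error only.

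Limma 3.58.1 (R 4.3.3) was run on log2(value + 1), with 4 group means and eBayes with a trend, for the 18579 genes with at least 10 reads over the 12 libraries, with Benjamini-Hochberg adjustment over all of them. Fold changes on this scale understate those of low genes. An FDR under 0.05 was called. Alternatives were edgeR 4.0.16 and DESeq2 1.42.0 on recovered reads, other pseudocounts, filters, scaling and samples, a replicate block and leaving out each library. Scripts were tested on simulated data. The labels do not say that replicates were separate cultures, so p-values measure the spread between these samples, which may be technical. An exact permutation test of 3 against 3 cannot go below 0.1.

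All 10 clock genes and genes of the 22-gene list past an absolute log2 fold change of 1 were named by rule, and others are marked. The clock genes and lists were chosen with earlier results of these data known. Gene models came from GENCODE v44 (hg38), with 16580 of 18579 tested genes matched by symbol, and promoters from RefSeq (GRCh38.p14), where all 10 clock genes and 18 of the 22 others matched. PGR was not analysed here, and a further treatment check gene is not reported here.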

Additional observations from a re-analysis of the deposited data

How the results depend on the processing

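Each of 50 values (10 clock genes in 5 comparisons) was recomputed under up to 22 alternatives. Of 1090 alternative values, 1061 kept their direction and their side of an FDR of 0.05, 17 kept the direction and lost the call, 5 gained a call and 7 changed sign. The changes of sign were of uncalled values near 0 on leaving out 1 library: NR1D2 between the lines under TGFβ1 (−0.033 to 0.0656), CRY2 under TGFβ1 in wt-GR cells (−0.0484 to 0.0431) and the difference in response of DBP (−0.1835 to 0.0819). On leaving out each library in turn, the number of clock genes called was 6 to 9 between the lines under vehicle, 8 under TGFβ1, 6 to 7 for TGFβ1 in wt-GR cells, 4 to 5 in S134A-GR cells and 0 for the difference in response. With a cutoff of 1 on the absolute log2 fold change added, 0 clock genes were called between the lines under either treatment, and 1 (BHLHE40) for TGFβ1 in each line. By edgeR and DESeq2 the counts were 7, 8, 7, 5 and 0, as by limma.

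On average, libraries with the same replicate number did not deviate together (mean r −0.00319 over 12589 genes, range −0.154 to 0.159). The mean r between different numbers was 0.00173, and 6 of 12 libraries were closest to one of their own number. With a replicate block in the model, 6 clock genes were called between the lines under vehicle, as CRY1 lost its call (FDR = 0.0539 by limma), and the other counts were 8, 7, 5 and 0. Fitting only the groups compared, the calls of CRY1 between the lines under vehicle (FDR = 0.0699), NR1D1 under TGFβ1 in wt-GR cells (0.0533) and PER3 under TGFβ1 in S134A-GR cells (0.052) were lost by limma. Without a trend in the variance, NR1D1 in wt-GR cells lost its call (0.0534) and PER2 in S134A-GR cells gained one (0.0474). For the 22 other clock genes, leaving out each library gave 13 to 16 calls between the lines under vehicle, 12 to 15 under TGFβ1, 4 to 10 for TGFβ1 in wt-GR cells and 6 to 9 in S134A-GR cells, and fitting only the groups compared gave 4 in wt-GR cells, with the RORB call lost (0.0617). CSNK1E lost its call under vehicle without a trend (0.0575). TMM scaling moved the median of all genes by at most 0.0109 (log2) in size.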

Other observations

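The genes most like BHLHE40 across the 4 groups were sought among 11739 genes, by the distance between centred log2 group means. These were the genes for which the log2 of the mean CPM was 1 or more. COL4A2, a basement membrane collagen, was closest (distance 0.230 on the log2 scale), followed by SH2D2A, a T cell adaptor gene (0.264), and LOC79160 (0.269). COL4A2 had means of 29709 ± 2093 normalized counts (SD, n = 3) in wt-GR vehicle cells and 63189.9 ± 1519.7 after TGFβ1, and 16606 ± 304 and 34737 ± 857 in S134A-GR cells. SH2D2A was far less abundant, at 527 ± 30.0 and 1472 ± 87.9 in wt-GR and 293 ± 12.9 and 841 ± 87.0 in S134A-GR cells. All of these genes were higher with TGFβ1 and lower in S134A-GR cells, which follows from picking them by likeness to BHLHE40. The likeness is a description over 4 group means.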
